A study of Rattus norvegicus with 6 samples.

Results

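A group of 9 genes of NADPH supply and of the thioredoxin system was followed in rat liver: the pentose phosphate genes Pgd, Taldo1 and Tkt, the NADPH-forming dehydrogenases Me1 and Idh1, and the thioredoxin and peroxiredoxin genes Txnrd1, Txn1, Prdx1 and Srxn1. They were chosen by name, with earlier results of these data known. Every probe whose RefSeq accession belonged to one of them was taken. This gave 15 probes of 8 genes, out of 61657 probes and 15284 named genes on the array. No probe was named as Pgd, so Pgd is not analysed here.

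Livers of 6 male Sprague-Dawley (Crl:CD(SD)) rats, bought at 5 weeks of age, were measured on 1-colour Agilent arrays, with 1 array per rat. The 3 treated rats received ADBAQ, the anthraquinone 1-amino-2,4-dibromoanthraquinone, at 1000 mg/kg/day, and the 3 control rats received vehicle alone. The labels disagree on the vehicle, called purified water in the sample characteristics but corn oil in the treatment protocol, and on the duration, 28 days or 9 weeks. No genotype or transgene is given for either group. The 3 vehicle arrays lay on 1 slide scanned on 1 day and the 3 ADBAQ arrays on another slide scanned on another day, so slide, scan day and treatment cannot be told apart.

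NADPH is the reducing currency of the cytosol. In liver it is regenerated by the oxidative branch of the pentose phosphate pathway, by malic enzyme and by cytosolic isocitrate dehydrogenase, and it is spent on lipid synthesis, on drug metabolism and on the removal of peroxides. Thioredoxin reductase passes electrons from NADPH to thioredoxin, thioredoxin reduces peroxiredoxins after they have destroyed a peroxide, and sulfiredoxin repairs peroxiredoxins that have been over-oxidised. Several of these genes are textbook targets of the transcription factor NRF2, which binds antioxidant response elements, and its regulators and other targets are described further on.

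The sequence before the annotated start of 5 of the genes is printed so that its content can be set beside the expression values. The sequences come from RefSeq, build GRCr8, which is not the build of the array design, and each run is the 250 bases before the start, read 5′ to 3′ on the strand of the gene. Capitals mark each match to TGACNNNGC, the core of the antioxidant response element, searched on both strands. Me1, Txnrd1, Prdx1 and Idh1 are shown because they hold a match, and Srxn1 because it had the largest change of the measured members without one. The intervals are chr8:96540245-96540494 for Me1 (minus strand), chr7:22755905-22756154 for the start of Txnrd1 that holds a match (minus strand), chr5:135383656-135383905 for Prdx1 (plus strand), chr9:74049475-74049724 for Idh1 (minus strand) and chr3:161064562-161064811 for Srxn1 (plus strand).
Me1: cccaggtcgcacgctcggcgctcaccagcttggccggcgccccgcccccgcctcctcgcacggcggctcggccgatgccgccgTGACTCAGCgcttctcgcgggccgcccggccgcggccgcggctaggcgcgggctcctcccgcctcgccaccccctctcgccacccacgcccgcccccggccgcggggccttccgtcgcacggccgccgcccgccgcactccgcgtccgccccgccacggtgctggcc
Txnrd1: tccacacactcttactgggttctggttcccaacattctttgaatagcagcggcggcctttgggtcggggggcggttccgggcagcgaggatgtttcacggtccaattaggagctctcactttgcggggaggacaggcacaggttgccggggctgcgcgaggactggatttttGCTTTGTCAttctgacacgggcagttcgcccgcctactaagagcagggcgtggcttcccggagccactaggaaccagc
Prdx1: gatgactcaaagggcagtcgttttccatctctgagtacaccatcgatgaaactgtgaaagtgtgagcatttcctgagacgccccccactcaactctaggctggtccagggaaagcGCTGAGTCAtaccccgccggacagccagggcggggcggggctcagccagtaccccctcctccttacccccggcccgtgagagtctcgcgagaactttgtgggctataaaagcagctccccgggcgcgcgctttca
Idh1: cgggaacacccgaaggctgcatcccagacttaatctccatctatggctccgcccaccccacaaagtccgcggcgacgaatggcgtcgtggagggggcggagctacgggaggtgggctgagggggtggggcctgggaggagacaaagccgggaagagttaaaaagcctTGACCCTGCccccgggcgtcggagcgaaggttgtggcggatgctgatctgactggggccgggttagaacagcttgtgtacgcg
Srxn1: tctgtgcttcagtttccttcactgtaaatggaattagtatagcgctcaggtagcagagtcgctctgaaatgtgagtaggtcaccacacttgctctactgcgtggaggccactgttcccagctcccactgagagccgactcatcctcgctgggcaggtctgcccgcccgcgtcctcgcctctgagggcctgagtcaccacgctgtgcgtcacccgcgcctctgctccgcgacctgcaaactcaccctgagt
The match in Me1 reads TGACTCAGC at bases -167 to -159 from the start, on the strand of the gene. The match in Prdx1 reads GCTGAGTCA at -135 to -127 and lies on the opposite strand, so its reverse complement has the same letters as the Me1 match. Txnrd1 holds GCTTTGTCA at -78 to -70, also on the opposite strand, and Idh1 holds TGACCCTGC at -83 to -75 on the strand of the gene.

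In windows of 300 bases (250 before the start and 50 after it), 4 of the 9 genes held TGACNNNGC, against 12.1% of 33469 rat promoter windows and 13.1% of 27457 genes. GCGTG, the core of the xenobiotic response element bound by the AhR, was in 5 of the 9 genes (Taldo1, Srxn1, Txn1, Txnrd1 and Me1), against 29.7% of windows and 32.4% of genes, and overlapped no TGACNNNGC match in these genes. Of the 4 genes with TGACNNNGC, Me1 and Txnrd1 rose with ADBAQ, while Prdx1 and Idh1 did not pass the test. Srxn1 and Tkt rose and held no such match in these windows. These are matches of letters and not measured binding sites.

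Values below are log2 levels, the log2 of the processed signal of a probe minus that of the array's 75th percentile. A gene was called where limma gave an adjusted p under 0.05 (Benjamini-Hochberg over all probes kept), and it is represented by its brightest probe. With ADBAQ, 4 of the 8 measured genes rose (Srxn1, Txnrd1, Me1 and Tkt) and 0 fell, where 9.05% of the 11344 genes tested rose and 11.3% fell. In 6 of the 8 genes all 3 ADBAQ rats lay above all 3 vehicle rats, which held for 21.2% of the genes tested. By probe, 10 of the 15 rose, where 8.37% of all probes kept did, and all 15 had a log2 fold change above 0. The median log2 fold change was 0.34 over the 8 genes and -0.04 over all genes tested. Because the genes were chosen with earlier results known, these counts and medians are a description. Since all 15 probes were well above background on all 6 arrays, no member entered the test only through the group where it was high, and none of their spots was saturated.

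**Figure D1:**
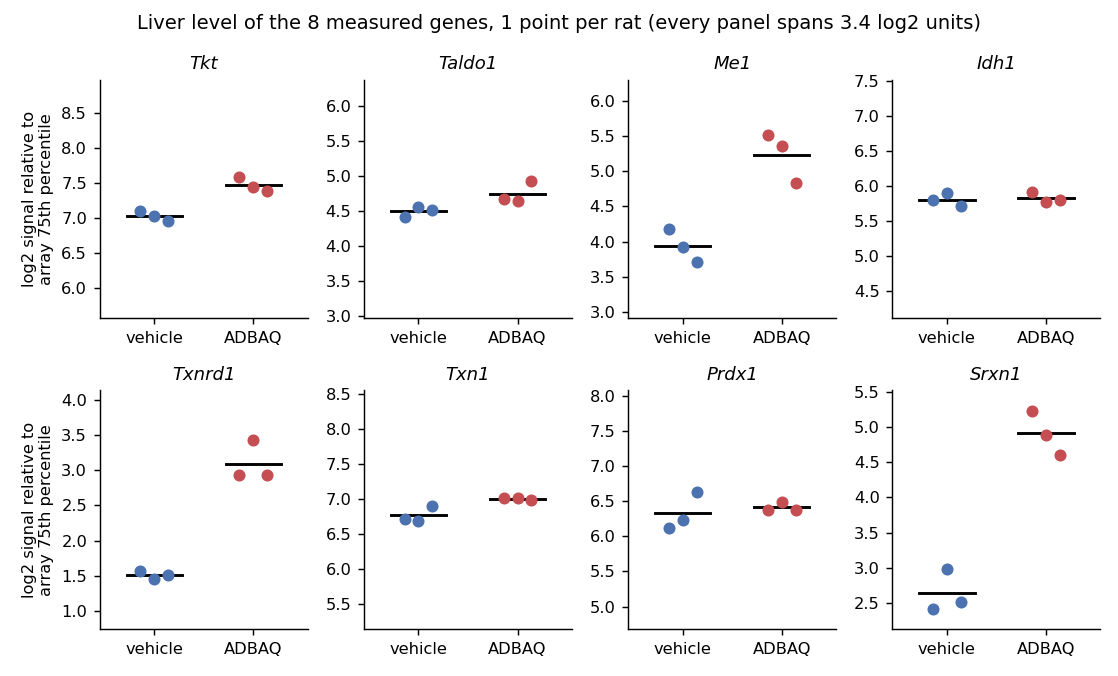
Log2 signal relative to the array's 75th percentile (y axis) in each vehicle and ADBAQ rat (1 point per rat, bar at the group mean) for the brightest probe of the 8 measured genes. The groups are clearly apart for Srxn1, Txnrd1 and Me1, closer but not overlapping for Tkt, Taldo1 and Txn1, and overlapping for Idh1 and Prdx1.

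Array-wide facts that bear on these values are few. On the linear scale the 75th percentile of probe signal was 433 to 461 on the vehicle arrays and 570 to 643 on the ADBAQ arrays, and 62.1% to 65.3% of probes were well above background. The spike-in control spots had a mean log2 signal of 13.10 to 13.22 on the vehicle arrays and of 12.77 to 12.90 on the ADBAQ arrays. Scaling to those spots moved the median log2 fold change of all genes from -0.04 to 0.72 and called all 8 measured members higher, along with 78.8% of all genes tested. With that scaling the direction of genes called lower can flip, and the value is given beside each such gene named. The number of arrays limits the precision, and in bulk liver RNA fewer cells of a type cannot be told apart from less RNA per cell.

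In the pentose phosphate pathway, Tkt rose by a small amount. Tkt encodes transketolase, which moves carbon between sugar phosphates in the non-oxidative branch. Its log2 level was 7.09, 7.03 and 6.96 in the vehicle rats and 7.58, 7.44 and 7.38 in the ADBAQ rats. Every ADBAQ rat was above every vehicle rat, with ADBAQ rat 1 the highest. The log2 fold change was 0.44 ± 0.09 (SE, n = 3 per group), 1.36-fold, with a limma adjusted p of 0.0276. This call was the least secure of the 4, since it held without vehicle rat 1 (adjusted p = 0.0494) but was lost when any other rat was left out, at an adjusted p of 0.0697 without vehicle rat 2, 0.0697 without vehicle rat 3, 0.0859 without ADBAQ rat 1, 0.0739 without ADBAQ rat 2 and 0.0575 without ADBAQ rat 3.

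Taldo1 encodes transaldolase, the partner of transketolase in the same branch. Its log2 level was 4.42, 4.55 and 4.51 in the vehicle rats and 4.67, 4.64 and 4.92 in the ADBAQ rats. The groups did not overlap, but the gap was narrow, from 4.55 in vehicle rat 2 to 4.64 in ADBAQ rat 2. Taldo1 did not pass the test, with a log2 fold change of 0.25 ± 0.11, a 95% interval of -0.02 to 0.51 and an adjusted p of 0.160.

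Around them, calls in the pathway went in both directions, at about the shares of all genes tested. Of 13 other pentose phosphate genes 10 were tested, of which 1 rose and 2 fell, beside 9.05% and 11.3% of all genes tested. The median log2 fold change of the 10 genes was 0.20. The listed genes that fell were H6pd, the hexose-6-phosphate dehydrogenase of the endoplasmic reticulum, at -0.41 (adjusted p = 0.0434), and Shpk, sedoheptulokinase, at -0.37 (adjusted p = 0.0331). Both were above 0 with spike-in scaling, at 0.34 and 0.39, and neither call was kept in any fit that left out a rat. The other H6pd probes were not called, at -0.09 (adjusted p = 0.590) and -0.19 (adjusted p = 0.318). The H6pd call was also lost with quantile normalization, centring on the median and averaging of its probes. The gluconolactonase Pgls had -0.07 (adjusted p = 0.640) and 0.69 with spike-in scaling.

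Of the NADPH-forming dehydrogenases, Me1 rose on all 3 of its probes while neither probe of Idh1 passed the test. Me1 encodes the cytosolic malic enzyme, which forms NADPH as it converts malate to pyruvate. On the brightest probe its log2 level was 4.18, 3.92 and 3.70 in the vehicle rats and 5.51, 5.36 and 4.83 in the ADBAQ rats. The lowest ADBAQ value stood above the highest vehicle value, and the ADBAQ rats spread more widely (SD 0.36) than the vehicle rats (SD 0.24). The log2 fold change was 1.30 ± 0.21, a 2.46-fold increase (95% interval of the log2 fold change 0.79 to 1.81; adjusted p = 0.0134). It stayed called whichever rat was left out, at 1.16 to 1.50 with an adjusted p of at most 0.0456.

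The other Me1 probes gave larger differences. One, A_64_P136153, was at 2.91, 2.64 and 2.40 in the vehicle rats and at 5.04, 4.38 and 3.82 in the ADBAQ rats, a log2 fold change of 1.76 ± 0.31 (adjusted p = 0.0167). The other, A_43_P11481, was at 2.55, 2.31 and 1.99 and at 4.71, 3.93 and 3.56, a log2 fold change of 1.78 ± 0.31 (adjusted p = 0.0157). All 3 probes ranked the rats of each group in the same order, with vehicle rat 1 and ADBAQ rat 1 highest. The call on A_64_P136153 was lost without vehicle rat 3 (adjusted p = 0.0531) or without ADBAQ rat 2 (adjusted p = 0.0509).

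Idh1 encodes the cytosolic isocitrate dehydrogenase that reduces NADP+. On its brighter probe the log2 level was 5.80, 5.90 and 5.71 in the vehicle rats and 5.92, 5.77 and 5.80 in the ADBAQ rats, and the groups overlapped. This gave a log2 fold change of 0.03 ± 0.10, with a 95% interval of -0.20 to 0.26. The second probe, at 4.78, 4.89 and 4.72 in the vehicle rats and 5.01, 4.83 and 4.87 in the ADBAQ rats, gave 0.11 ± 0.10 (adjusted p = 0.452) and overlapped too.

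Among 13 other sources of NADPH tested, 1 rose and 2 fell, beside 9.05% and 11.3% of all genes tested. The median log2 fold change of the 13 genes was -0.19. Me2, the mitochondrial malic enzyme, had 0.62 (adjusted p = 0.0474), a call kept only without ADBAQ rat 2 when a rat was left out (adjusted p of up to 0.116) and lost with normexp background correction (0.12, adjusted p = 0.446). Glud1, glutamate dehydrogenase, had a log2 fold change of -0.75 (adjusted p = 0.0224; 0.01 with spike-in scaling), a call lost without vehicle rat 3, ADBAQ rat 1 or ADBAQ rat 3 (adjusted p of up to 0.0713). Nadk2, the mitochondrial NAD kinase that makes NADP+, had -0.57 on its brightest probe (adjusted p = 0.0112, and 0.19 with spike-in scaling). That probe stayed called whichever rat was left out. The other Nadk2 probes were not called, at -0.33 (adjusted p = 0.0602) and -0.34 (adjusted p = 0.111). Idh2, the mitochondrial counterpart of Idh1, did not pass the test at -0.72 (adjusted p = 0.0608; 0.04 with spike-in scaling). It was called lower with normexp background correction (-0.77, adjusted p = 0.0229), with trended and robust eBayes (adjusted p = 0.0432) and without ADBAQ rat 3 (-0.91, adjusted p = 0.0456). The transhydrogenase Nnt did not pass the test either, at -0.29 (adjusted p = 0.130; 0.46 with spike-in scaling).

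Me1 also belongs with the lipogenic enzymes, some of which use NADPH. Of 14 lipogenic enzymes and regulators tested, 1 rose and 4 fell, beside 9.05% and 11.3% of all genes tested. Their median log2 fold change was -0.09. Scd, the desaturase of stearoyl-CoA, had a log2 fold change of -2.04 (adjusted p = 0.0325). Fasn, fatty acid synthase, had -0.72 (adjusted p = 0.0479), Mlxipl, the carbohydrate-responsive regulator ChREBP, had -0.68 (adjusted p = 0.0131), and Acly, ATP citrate lyase, had -0.49 (adjusted p = 0.0173). With spike-in scaling Scd stayed below 0 at -1.28, whereas Fasn, Mlxipl and Acly came to 0.04, 0.07 and 0.26. Elovl6, a fatty acid elongase, had 1.37 (adjusted p = 0.0312), and of these 5 calls only that of Mlxipl was kept whichever rat was left out.

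In the thioredoxin system the reductase rose and its substrate did not pass the test. Txnrd1 encodes the cytosolic thioredoxin reductase, a selenoprotein. On the brightest of its 4 probes the log2 level was 1.57, 1.45 and 1.51 in the vehicle rats and 2.93, 3.43 and 2.93 in the ADBAQ rats. The vehicle rats lay close together (SD 0.06), and the lowest ADBAQ rat stood far above them, with ADBAQ rat 2 the highest. The log2 fold change was 1.59 ± 0.16, a 3.01-fold increase (95% interval 1.21 to 1.97 on the log2 scale; adjusted p = 0.00398).

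All 4 Txnrd1 probes were called. A_44_P554454 read 1.24, 1.17 and 1.05 in the vehicle rats and 2.59, 2.68 and 2.63 in the ADBAQ rats, a log2 fold change of 1.48 ± 0.09 (adjusted p = 0.00127). A_44_P134070 read 0.82, 0.54 and 0.83 against 1.88, 2.08 and 2.12, a log2 fold change of 1.30 ± 0.12 (adjusted p = 0.00366). The dimmest, A_64_P076475, read -1.33, -1.34 and -1.31 against -0.01, 0.35 and -0.05, a log2 fold change of 1.42 ± 0.13 (adjusted p = 0.00325). On each probe the 3 ADBAQ rats lay above the 3 vehicle rats, and the folds ran from 2.46 to 3.01. The brightest probe stayed called under every alternative tried, with an adjusted p of at most 0.0192 when a rat was left out.

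Txn1 encodes the cytosolic thioredoxin, which Txnrd1 reduces. Its log2 level was 6.72, 6.69 and 6.90 in the vehicle rats and 7.01, 7.01 and 6.99 in the ADBAQ rats. The groups did not overlap, and the ADBAQ rats were close together (SD 0.01) while vehicle rat 3 stood above the other vehicle rats. The log2 fold change of 0.23 ± 0.09 (95% interval 0.01 to 0.45) did not pass the test, with an adjusted p of 0.130. It was called at 0.28 with normexp background correction (adjusted p = 0.0311).

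Prdx1 encodes a cytosolic peroxiredoxin, an abundant thioredoxin-dependent peroxidase. Its log2 level was 6.13, 6.24 and 6.64 in the vehicle rats and 6.37, 6.49 and 6.38 in the ADBAQ rats. The groups overlapped, and the highest value of all 6 was that of vehicle rat 3. Its log2 fold change was 0.08 ± 0.15 (95% interval -0.28 to 0.44; adjusted p = 0.734), and it ran from -0.02 (without vehicle rat 1) to 0.23 (without vehicle rat 3) when a rat was left out, with an adjusted p of at least 0.181.

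Srxn1, the sulfiredoxin that returns over-oxidised peroxiredoxins to service, showed the largest difference of the 8 genes. On its brighter probe the log2 level was 2.42, 2.98 and 2.51 in the vehicle rats and 5.24, 4.90 and 4.60 in the ADBAQ rats. The gap between the groups, from vehicle rat 2 to ADBAQ rat 3, was wide against the spread within each (SD 0.30 and 0.32). Srxn1 thus rose by a log2 fold change of 2.28 ± 0.21, a 4.86-fold increase (95% interval 1.76 to 2.80 on the log2 scale; adjusted p = 0.00354). It was 2.12 to 2.45 when a rat was left out, with an adjusted p of at most 0.0186.

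The second Srxn1 probe, A_42_P703664, was much dimmer, at -2.32, -2.10 and -2.58 in the vehicle rats and -0.97, -1.19 and -1.09 in the ADBAQ rats. Its log2 fold change was 1.25 ± 0.14 (2.38-fold; adjusted p = 0.00573) and came to 0.63 with normexp background correction. The 2 probes thus agreed in direction and differed in size, and their mean gave a log2 fold change of 1.76.

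**Figure D2:**
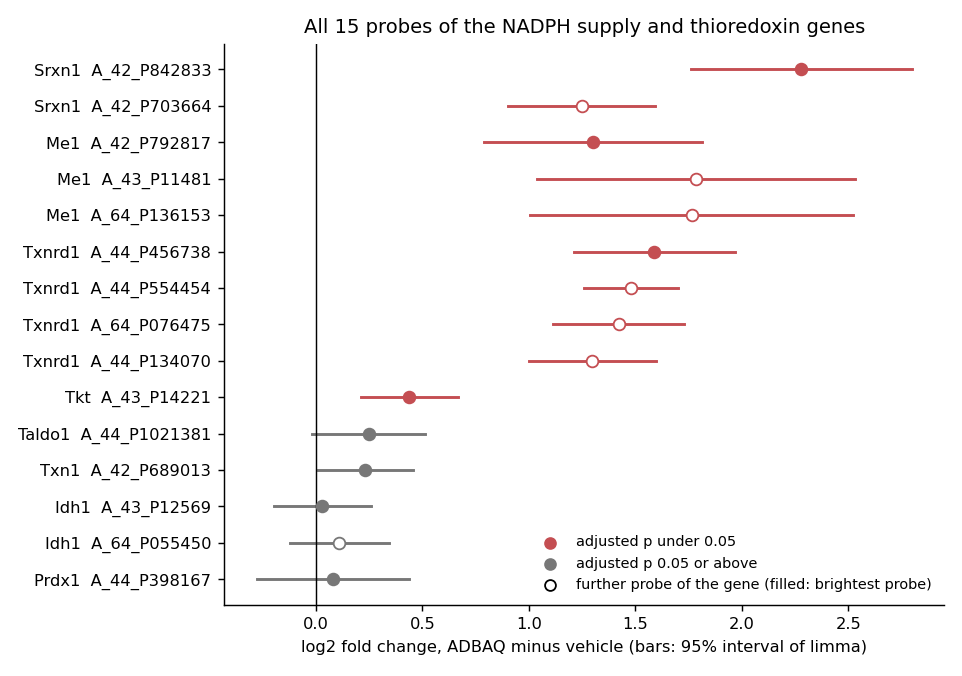
Log2 fold change, ADBAQ minus vehicle (x axis), with its 95% limma interval (bars) for all 15 probes, grouped by gene; filled points are the brightest probe of a gene. The 10 probes called higher belong to Srxn1, Txnrd1, Me1 and Tkt, and the intervals of Idh1, Prdx1 and Taldo1 cross 0 while that of Txn1 begins at 0.01.

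By the log2 fold change of the brightest probe, the order of the genes was Srxn1 (2.28), Txnrd1 (1.59), Me1 (1.30), Tkt (0.44), Taldo1 (0.25), Txn1 (0.23), Prdx1 (0.08) and Idh1 (0.03). The 95% intervals of Txnrd1 and Me1 overlapped, as did those of Srxn1 and Txnrd1, while the lower bound of Me1 (0.79) lay above the upper bound of Tkt (0.67). Tkt, Taldo1, Txn1, Prdx1 and Idh1 had overlapping intervals. Among all genes tested, Srxn1 stood at percentile 99.4 of the log2 fold changes, Txnrd1 at 98.5, Me1 at 97.7, Tkt at 87.3 and Idh1 at 57.8. Within the ADBAQ group, rat 1 had the highest value for 5 of the 8 genes, rat 2 for 2 and rat 3 for 1. The order depended on the choice of probe. With the probes of a gene averaged, Srxn1 (1.76) was still first, but Me1 (1.62) came before Txnrd1 (1.45).

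Cytosolic members were set against their mitochondrial partners within each array, which removes any scaling factor of the array. The difference between 2 probes has no zero of its own, so only its change between groups is read. For Txnrd1 minus Txnrd2 it was -0.18, -0.11 and -0.46 in the vehicle rats and 1.22, 1.94 and 1.37 in the ADBAQ rats, a change of 1.76. For Idh1 minus Idh2 it was 0.55, 1.15 and 0.72 in the vehicle rats and 1.95, 1.57 and 1.15 in the ADBAQ rats, a change of 0.75 in which the highest vehicle rat and the lowest ADBAQ rat nearly met. Taken singly, Idh1 had a log2 fold change of 0.03 and Idh2 of -0.72, or 0.79 and 0.04 with spike-in scaling. Which gene of this pair moved thus depends on the scaling. Txn1 minus Txn2 went from 3.35 ± 0.20 to 3.44 ± 0.04 (mean ± SD, n = 3), and Prdx1 minus Prdx3 from 3.02 ± 0.29 to 3.02 ± 0.09. The two-sided exact permutation p was 0.1 for the pairs of Txnrd1 and Idh1, which is the smallest that 3 against 3 rats can give, 0.4 for Txn1 and 1 for Prdx1. Adjusted over the 4 pairs these values were 0.2, 0.2, 0.533 and 1, so no pair could pass 0.05.

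**Figure D3:**
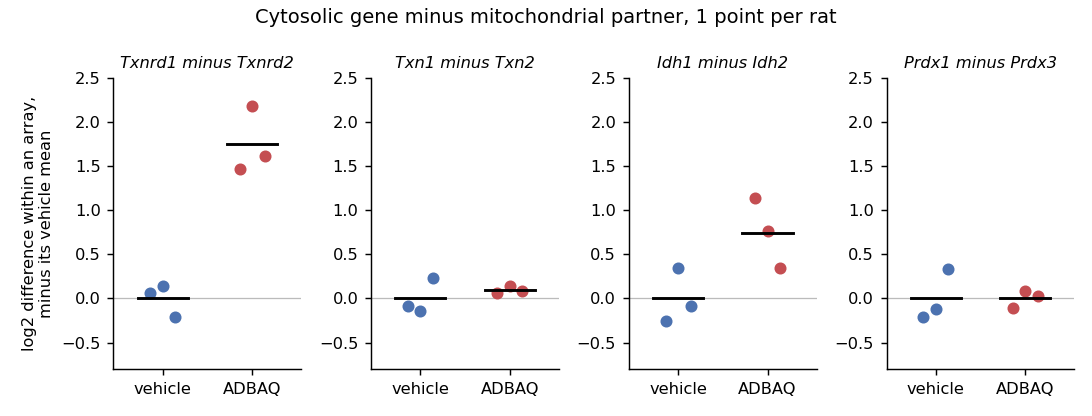
Log2 difference between a cytosolic gene and its mitochondrial partner within an array, minus the vehicle mean of that difference (y axis), for each vehicle and ADBAQ rat (1 point per rat). The ADBAQ rats are above the vehicle rats for Txnrd1 minus Txnrd2 (change 1.76), only just above for Idh1 minus Idh2 (change 0.75), and overlap them for the other pairs.

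A list of other thioredoxin, peroxiredoxin and related genes was not uniformly higher. The related genes included glutaredoxins and ribonucleotide reductase subunits, so the counts are not those of 1 family. Of 23 other genes tested, 4 rose and 3 fell, beside 9.05% and 11.3% of all genes tested. The median log2 fold change of the 23 genes was 0.00. Prdx6, a peroxiredoxin that uses glutathione, had a log2 level of 4.17, 4.20 and 4.27 in the vehicle rats and 4.75, 4.76 and 4.87 in the ADBAQ rats, a log2 fold change of 0.58 ± 0.09 (adjusted p = 0.0105) that was kept whichever rat was left out. Rrm2b, a ribonucleotide reductase subunit, had 0.93 (adjusted p = 0.0177; 0.10 with normexp background correction), a call lost without vehicle rat 3, ADBAQ rat 1 or ADBAQ rat 2 (adjusted p of up to 0.0619). The others that rose, named after their values were seen to complete the count, were the thioredoxin-like Txnl1 at 0.41 (adjusted p = 0.0225) and the glutaredoxin Glrx3 at 0.40 (adjusted p = 0.0331). Txnrd3 at -0.62 (adjusted p = 0.0396), the thioredoxin-binding inhibitor Txnip at -0.54 (adjusted p = 0.0483) and Prdx4 of the endoplasmic reticulum at -0.43 (adjusted p = 0.0386) fell, but were above 0 with spike-in scaling, at 0.14, 0.21 and 0.33. The call on Txnip was lost when any rat was left out, and those on Txnrd3 and Prdx4 were lost when any but vehicle rat 3 was, with an adjusted p of up to 0.129. The mitochondrial genes Txn2 (0.14, adjusted p = 0.307), Txnrd2 (-0.17, adjusted p = 0.397; 0.59 with spike-in scaling) and Prdx3 (0.08, adjusted p = 0.537) did not pass the test, nor did Prdx2 (0.23, adjusted p = 0.180) or Prdx5 (-0.10, adjusted p = 0.734; 0.66 with spike-in scaling).

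Among 12 other genes listed for redox defence, most but not all of them users of NADPH, 6 rose and 0 fell. Their median log2 fold change was 0.90, beside 9.05% higher, 11.3% lower and a median of -0.04 over all genes tested. Catalase, Cat, at -0.31 and Nqo2 at -0.28 were in this list and were not called. With normexp background correction 9 of the 12 rose and 1 fell. Gsr, glutathione reductase, which does for glutathione what Txnrd1 does for thioredoxin, had a log2 level of 0.07, -0.02 and -0.10 in the vehicle rats and 1.03, 1.28 and 1.16 in the ADBAQ rats, a log2 fold change of 1.17 ± 0.10 (adjusted p = 0.00317). Akr1b8, an aldo-keto reductase, rose by 4.68 on the log2 scale (adjusted p = 0.00652; 3.86 with normexp background correction), Hmox1, haem oxygenase, by 1.68 (adjusted p = 0.0110) and Cbr1, a carbonyl reductase, by 1.24 (adjusted p = 0.0144). Of these 4 the call on Cbr1 was lost without ADBAQ rat 1 (adjusted p = 0.0507). Nqo1, a quinone reductase, had 1.85 on its brightest probe and did not pass the test (adjusted p = 0.0824), but passed it with normexp background correction (adjusted p = 0.0327) and without ADBAQ rat 2 (2.60, adjusted p = 0.00510). Its other probe was called at 1.99 (adjusted p = 0.0491), and on both probes ADBAQ rat 2 was the lowest of the treated rats.

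Of 15 genes listed for NRF2, its regulators and glutathione synthesis, with the efflux pump gene Abcc3 counted among them, 8 rose and 0 fell. Their median log2 fold change was 0.85, where 9.05% of all genes tested rose and 11.3% fell. Nfe2l2, which encodes NRF2, had 0.90 (adjusted p = 0.00866), and its repressor Keap1 had 0.25 and did not pass the test (adjusted p = 0.209). Slc7a11, the cystine carrier, rose by 2.76 on the log2 scale (adjusted p = 0.000885; 1.44 with normexp background correction), the efflux pump gene Abcc3 by 3.95 (adjusted p = 0.00300) and Maff, a small MAF partner of NRF2, by 2.61 (adjusted p = 0.00436; 0.94 with normexp background correction). Of the 3 vehicle arrays, 2 had Maff well above background. Gclm and Gclc, the subunits of the enzyme that starts glutathione synthesis, rose by 1.67 (adjusted p = 0.00754; 0.53 with normexp background correction) and 0.85 (adjusted p = 0.0138), the latter lost without ADBAQ rat 1 (adjusted p = 0.0515). The lists were drawn up with results of these data known, so their counts are a description.

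**Figure D4:**
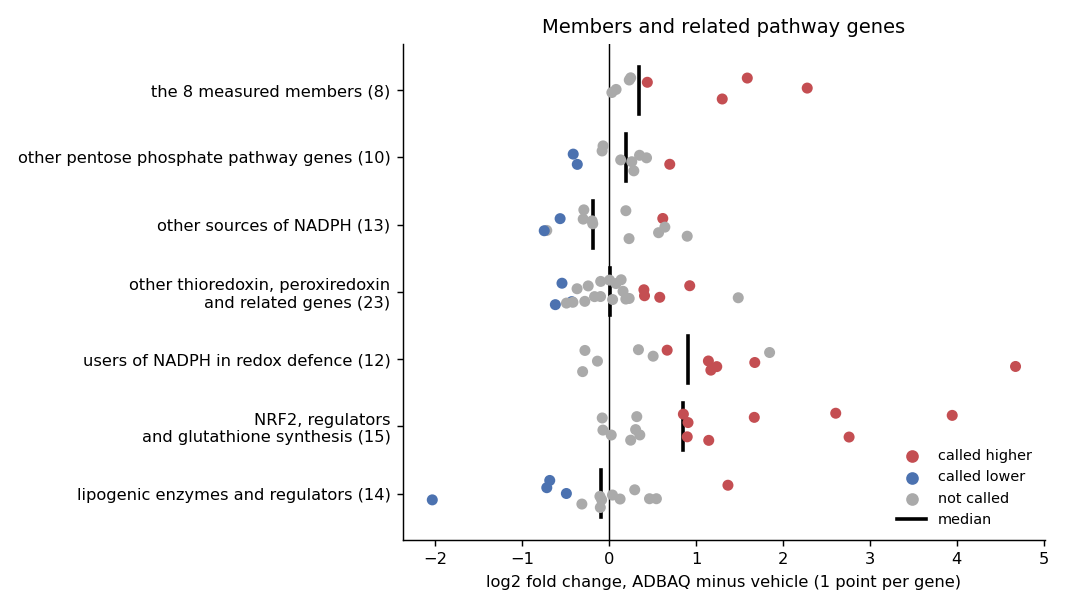
Log2 fold change, ADBAQ minus vehicle (x axis, 1 point per gene), for the 8 measured members and 6 lists of related genes (rows), coloured by whether a gene was called higher, called lower or not called, with the list median as a bar. The medians run from -0.19 for the list of other sources of NADPH to 0.90 for the list headed users of NADPH in redox defence. Of the genes called lower that are named in the text, Scd alone stayed below 0 with spike-in scaling.

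Markers of liver cell types moved beside these genes, and their part in the results was not tested. For comparison, 9.05% of all genes tested rose and 11.3% fell, and with spike-in scaling 78.8% rose. Of 10 hepatocyte markers 8 fell (median log2 fold change -0.62; with spike-in scaling 2 fell and 3 rose, median 0.14), and their summed level (linear, relative to the 75th percentile) was 6390 to 6825 in the vehicle rats and 4525 to 4895 in the ADBAQ rats. Of 5 erythroid markers 4 rose, with a summed level of 204 to 285 against 414 to 552 (all 5 rose with spike-in scaling). Of 8 markers of Kupffer cells and macrophages 1 rose, Lyz2, with a summed level of 79.4 to 92.9 against 95.8 to 118 (all 8 rose with spike-in scaling). Of 5 of cholangiocytes 2 rose and 1 fell (4 rose and 0 fell with spike-in scaling), with a summed level of 1.57 to 1.87 against 2.45 to 3.84. Of the markers of neutrophils (3 tested), lymphocytes (5), endothelial cells (5) and stellate cells and fibroblasts (7), none was called (with spike-in scaling 2, 5, 5 and 6 rose), and the neutrophil markers Elane, Ngp and Mmp8 were not well above background.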

How the data were processed

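Per the file headers, Agilent Feature Extraction 10.7.1.1 quantified the 6 arrays, 1 per rat (10.7 in the submitters' processing notes). The deposited scanner files hold linear intensity values, namely a processed signal with background removed by the software, and the median spot signal and median local background. Other columns, per the file headers, mark a spot as well above background, saturated or an outlier. The deposited series table holds a linear ratio made by the authors, which on comparison equals processed signal over each array's 75th percentile, without centring on genes; its columns had medians of 0.0967, 0.0970 and 0.0982 (vehicle) and 0.0929, 0.0971 and 0.0952 (ADBAQ).

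Values computed here are log2 of the processed signal minus that of the array's 75th percentile. Of 61657 probes (1319 control spots apart), 27460 were named through RefSeq accessions as 15284 genes. A probe was kept where every array of 1 group or both had it well above background, which left 38694 probes and 11344 genes. Groups were compared with limma 3.58.1 (lmFit and eBayes) in R 4.3.3, with Benjamini-Hochberg adjustment across all kept probes and calls at an adjusted p under 0.05. The SE and interval of a probe come from eBayes, which draws its variance towards a common value. The probe of highest mean signal stands for its gene. The method was also run on simulated data, but the outcome is not given here and is not used as support for any call. The treatment protocol describes separate animals. The shared replicate numbers were not taken as a pairing of the rats.

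The members and lists were chosen with earlier results of these data known. Named are all members, up to 4 called genes of each list with the largest changes, a few genes fixed by name, and the 5 genes nearest to Txnrd1. The alternatives were normexp background correction, quantile, median and spike-in scaling, no or a stricter filter, the series table, other variance models, the replicate block, averaging the probes of a gene, and omitting each array in turn. Me3 has no named probe, so its pair is not analysed here. Of the genes that the naming rule picked, 1 is not reported here but remains in the counts of its list.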

Additional observations from a re-analysis of the deposited data

How the results depend on the processing

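Txnrd1, Srxn1 and Me1 stayed called higher under every alternative tried. The largest shifts came from scaling to the spike-in spots, which called 30276 probes and 8937 genes higher and 508 probes and 187 genes lower, with 8 members higher and a member median of 1.1. With that scaling these genes turned from below to above 0: Pgls 0.69, Prdx5 0.66, Txnrd2 0.59, Nnt 0.46, Shpk 0.39, H6pd 0.34, Prdx4 0.33, Acly 0.26, Txnip 0.21, Nadk2 0.19, Txnrd3 0.14, Mlxipl 0.072, Fasn 0.038, Glud1 0.0090 and Idh2 0.038; of these Pgls, Prdx5, Txnrd2, Nnt and Idh2 were not called lower to begin with. The lower calls on Fasn, H6pd, Txnip and Txnrd3 were lost both with quantile normalization and with centring on the median. That on Prdx4 was lost with centring on the median. Normexp background correction called 9843 probes and 2656 genes lower, and no filter on dim probes called 10907 probes and 2387 genes lower. The cause of these higher counts was not tested. With the replicate number as a block, 1339 probes and 431 genes were called higher and 1630 probes and 555 genes lower, and 3 members stayed called, Tkt being lost (adjusted p = 0.0645). The correlations of same-numbered rats' deviations were -0.029, -0.020 and -0.005, within the range of rats with different numbers (-0.045 to 0.064). With 3 rats per group this showed no pairing but cannot exclude one. Leaving out 1 rat, which leaves fewer samples, gave 1287 to 2237 probes and 402 to 714 genes higher, 1546 to 2515 probes and 520 to 852 genes lower, and 3 to 4 members higher. Groups of 3 are too small for a test of single arrays that stand apart.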

Other observations

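The 5 genes whose levels lay closest to those of Txnrd1 over the 6 arrays, each with its vehicle mean subtracted, were Rec8, Ankrd34b, Htatip2, Btg1b and Pak1. The root mean square distance to Txnrd1 was 0.142 for Rec8, 0.174 for Ankrd34b, 0.185 for Htatip2, 0.188 for Btg1b and 0.192 for Pak1, in log2 units. Htatip2 was at 1.33, 1.33 and 1.42 in the vehicle rats and at 2.91, 2.89 and 2.65 in the ADBAQ rats, a log2 fold change of 1.46 ± 0.10 (limma adjusted p = 0.00164). No vehicle array had Ankrd34b well above background, so its log2 levels there are not measured values and the distance depends on them.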
